A study of Mus musculus with 24 samples.

Results

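Undifferentiated Tet2-/- mouse embryonic stem cells (ESCs) were compared with WT cells of the same line, using 5 of the 24 libraries of the series. The members were all libraries labelled Tet2 knockout or WT at D0, that is 2 Tet2-/- clones (Tet2_KO_3.10 and Tet2_KO_3.11, here the first and second clone) and 3 WT clones (O4.1, O4.2 and O4.13). The line is of 129/SVj origin and carries eGFP behind an internal ribosome entry site at Pou5f1 (the Oct4 gene) in all groups, WT included. Cells were grown without feeders on gelatin in serum with LIF, the cytokine that holds mouse ESCs undifferentiated. Every library came from 1 clone, and all clones were derived from a single parental line, so the p-values measure the spread between clones of 1 line. Polyadenylated RNA was sequenced, and the deposited tables held 24045585 to 37290208 gene counts in these 5 libraries. Other D0 libraries entered the fit: 3 Tet1-/-, 2 DKO (Tet1 and Tet2 knocked out) and 2 TKO (all Tet genes knocked out). Levels are given as CPM, counts scaled to library size after TMM normalisation, and SE is the standard error of a log2 fold change.

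TET enzymes oxidize 5-methylcytosine, the methyl mark of DNA, to 5-hydroxymethylcytosine, which can lead to removal of the mark. In mouse ESCs Tet1 and Tet2 are the expressed members and Tet3 is low. DNA methylation is known to keep many germ cell genes silent in other cells, and mouse ESCs in serum are a mixed population in which a few cells pass through a 2-cell-like state marked by Zscan4 genes.

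The Tet2 guide lay in the coding sequence, and it is shown because it defines the knockout. The site occupied chr3:133148610-133148641 of mm9 on the minus strand, within a coding exon of Tet2 (exon 3 of transcript Tet2-202 in GENCODE vM1, exon 1 of Tet2-201). The guide is given first, then the WT site with the PAM in capitals, then the site with the deleted bases of each of the 2 listed clones in capitals:
Guide: gaaagtgccaacagatatcc
WT site: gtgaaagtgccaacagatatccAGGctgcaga
Allele of one clone: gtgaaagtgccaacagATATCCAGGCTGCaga
Allele of the other clone: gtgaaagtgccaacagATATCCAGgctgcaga
The deletions removed 13 and 8 bases, neither a multiple of 3. For each clone 1 allele was listed, and the list does not tie its clones to the 2 libraries.

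Tet2 RNA stood at 88.9, 89.0 and 83.4 CPM in the WT clones and at 19.7 and 21.6 in the Tet2-/- clones. Both knockout clones lay far below every WT clone, at a log2 fold change of -2.08 (SE 0.516, adjusted p = 0.0299, edgeR's quasi-likelihood test). In DKO Tet2 RNA stood at 52.3 and 21.0 CPM (log2 fold change against WT -1.25, adjusted p = 0.280, edgeR) and in TKO at 40.3 and 7.72 (-1.86, adjusted p = 0.0426, edgeR). Gene counts cover the whole transcript, so they cannot show the small deletion itself. Tet1 had 408, 210 and 349 CPM in WT and 429 and 420 in Tet2-/-, a log2 fold change of 0.40 (adjusted p = 0.758, edgeR). Tet3 had 4.78, 7.55 and 5.74 CPM in WT and 7.22 and 7.18 in Tet2-/-, with overlapping groups (log2 fold change 0.26, adjusted p = 0.446, edgeR).

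Of 14456 genes tested, 343 were called lower (2.37%) and 118 higher (0.816%) in Tet2-/- than in WT, a call being an adjusted p under 0.05 and more than a 2-fold change. Together 461 genes were called (3.19%), of which 74.4% were lower, or 81.6% with library totals in place of TMM. This excess of falls depended on the 2-fold limit: with the adjusted p alone, 725 genes were higher and 692 lower. The median log2 fold change of the genes called lower was -1.79, against 1.21 for the genes called higher and -0.007 for all genes tested. Weakly expressed genes were common among the calls: 73.5% of the genes called lower and 61.0% of those called higher had a WT mean under 5 CPM, against 30.5% of all genes tested. The biological coefficient of variation was 0.0760 between the 2 Tet2-/- clones and 0.114 among the WT clones, whereas the chi-square per gene between libraries, which grows with depth, was 19.7 for the Tet2-/- pair and 8.89 to 23.3 for the WT pairs. The ribosomal RNA precursor Rn45s took 1.10% of the counts in the first Tet2-/- clone, 0.378% in the second and 0.495% to 0.771% in WT, and its part in the calls was not tested. With the first clone alone, 102 of the 118 higher and 301 of the 343 lower genes differed more than 2-fold from the WT mean, and with the second clone alone 87 and 327. Both clones had entered the test that chose these genes, so these counts are descriptions only. The calls themselves needed both clones: the test gave 7 higher and 29 lower genes without the first clone, and 1 and 4 without the second, where the remaining clone was assumed to vary like the other groups. They also moved with the WT clones, to 186 and 404 without O4.1, 32 and 117 without O4.2, and 23 and 100 without O4.13.

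The WT clones did not stand equally far from Tet2-/-. Clone O4.1 was the lowest of the 3 WT clones for 235 of the 343 genes called lower and the highest for 87 of the 118 called higher. Over all genes tested it was the lowest for 4929 of 14456 and the highest for 4970. Clone O4.2 was the highest WT clone for 206 of the genes called lower.

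**Figure D1:**
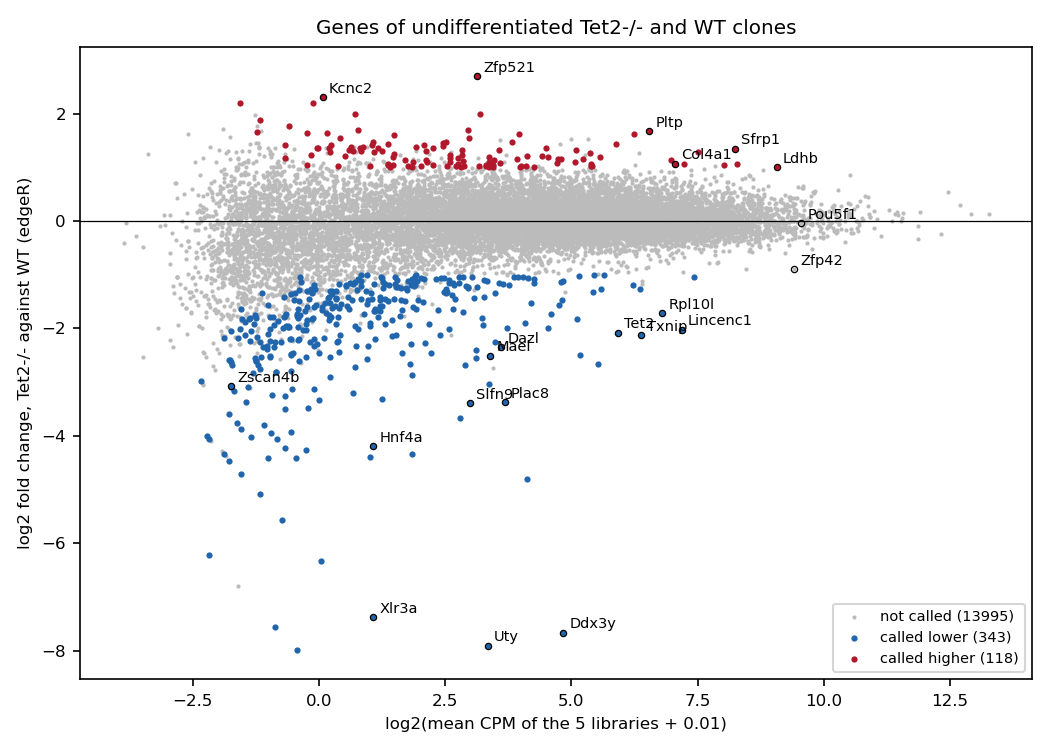
Log2 fold change of Tet2-/- against WT (edgeR) by log2 mean CPM of the 5 libraries for the 14456 genes tested. Blue points are the 343 genes called lower, many of them at low CPM, and red points the 118 called higher.

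Genes of the undifferentiated state were largely kept. The 12 ESC markers summed to 6801 and 6600 CPM in Tet2-/- and to 6827, 6964 and 7009 in WT, and none was called. Pou5f1, the core pluripotency factor, had 731 and 742 CPM in Tet2-/- and 810, 659 and 805 in WT. Nanog (log2 fold change -0.16), Sox2 (0.16), Sall4 (0.15) and Klf4 (0.33) had adjusted p-values of 0.280, 0.476, 0.338 and 0.268 in edgeR's quasi-likelihood test. None of the 16 core pluripotency genes tested was called, nor any of 17 naive pluripotency genes or 16 genes of LIF and STAT3 signalling.

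Zfp42 (Rex1), a marker of the naive state, had 463 and 435 CPM in Tet2-/- and 761, 840 and 906 in WT, so both knockout clones lay below all WT clones. Its log2 fold change of -0.90 (SE 0.157, adjusted p = 0.0105, edgeR) passed the test but stayed under the 2-fold limit. Zfp42 was also lower in Tet2-/- than in DKO (1099 and 947 CPM, log2 difference -1.19, adjusted p = 0.00262, edgeR) and than in TKO (838 and 1293, -1.25, adjusted p = 0.00192, edgeR). Esrrb, a naive pluripotency regulator, lay slightly above all WT clones (948 and 944 against 768, 804 and 750 CPM, log2 fold change 0.29, adjusted p = 0.0353, edgeR).

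Most lists of differentiated cell markers had low sums in these libraries. The 7 primitive endoderm markers summed to 6.30 and 6.67 CPM in Tet2-/- and to 7.17 to 8.18 in WT, with none called, and the 6 mesoderm markers to 11.4 and 12.4 against 9.48 to 13.6. The 6 neuroectoderm markers summed to 5.89 and 8.87 CPM in Tet2-/-, above the 5.24, 2.90 and 5.20 in WT, with none called and Pax3 and Neurog2 at 0 in every library. Gata6, a primitive endoderm regulator, did not pass the test (0.120 and 0.218 CPM against 0.306, 1.10 and 0.533, adjusted p = 0.259, edgeR), nor did T, the mesoderm gene Brachyury (adjusted p = 0.101, edgeR). Cdx2, a trophectoderm regulator, did not pass the filter on low counts. The 7 trophectoderm markers summed to 3.93 and 3.54 CPM against 5.77, 8.37 and 6.97. Of the 3 that passed the filter, 2 were called lower, Krt7 and Ascl2, where 2.37% of all genes were. Fibroblast markers Postn and Dcn were at 0 in every library, and the sum of that list (55.1 and 56.3 against 27.9 to 34.2 CPM) was higher in both Tet2-/- clones. Thy1 made up 53.5 and 54.6 CPM of it in Tet2-/- and 29.5, 31.7 and 24.8 in WT (log2 fold change 0.92, adjusted p = 0.0740, edgeR).

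Germ cell genes were prominent among the falls. Of 51 listed germline and meiotic genes, 50 were in the table, 41 passed the filter, 17 were called lower (41.5%, against 2.37% of all genes) and 0 higher. Their median log2 fold change was -1.15, with or without Xlr4a set at the bound that its counts allow. The gene lists of this report were chosen with earlier results of these data known, so their shares are descriptions only. After the values had been seen, 47 of the 343 genes called lower were grouped by their known germ cell roles, and the next paragraphs follow these groups, on which no test was made.

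Dazl, an RNA-binding protein of germ cell identity, had 3.85 and 3.24 CPM in Tet2-/- and 11.2, 26.2 and 16.4 in WT. Both knockout clones lay below the lowest WT clone (log2 fold change -2.34, SE 0.326, adjusted p = 0.00465, edgeR). In DKO, which carries Tet2 mutations as well, Dazl stood at 15.3 and 21.8 CPM, and Tet2-/- was lower than DKO by a log2 difference of -2.39 (adjusted p = 0.00273, edgeR). In TKO it stood at 6.38 and 6.98 CPM, and its difference from Tet2-/- did not pass the test (adjusted p = 0.102, edgeR). Boll, of the same protein family, had 1.04 and 0.952 CPM against 2.87, 3.68 and 2.95 (log2 fold change -1.67, adjusted p = 0.00536, edgeR). Taf7l, a germ cell form of a general transcription subunit, had 0.281 and 0.490 CPM against 1.15, 2.66 and 1.84 (-2.23, adjusted p = 0.0149, edgeR).

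Genes of the piRNA pathway, which silences transposons in germ cells, formed a group of 7 called genes with a median log2 fold change of -2.51. Mael, a cytoplasmic piRNA factor, had 2.65 and 2.83 CPM in Tet2-/- against 10.97, 20.8 and 15.1 in WT (log2 fold change -2.51, SE 0.405, adjusted p = 0.00820, edgeR). Gpat2 had 1.00 and 0.544 CPM against 4.55, 6.69 and 5.24 (-2.86, adjusted p = 0.00552, edgeR), and Fkbp6 0.401 and 0.354 against 1.76, 2.58 and 3.114 (-2.71, adjusted p = 0.00850, edgeR). The PIWI proteins Piwil1 and Piwil4 fell by 1.30 and 2.82 on the log2 scale, and the tudor proteins Tdrd5 and Tdrkh by 1.63 and 1.32, at adjusted p-values of 0.0256, 0.0293, 0.00465 and 0.0104 in edgeR. Against the same WT clones, the median of the 7 genes was -0.27 in DKO and -0.97 in TKO. Tet2-/- was lower than DKO in Mael and Piwil1 (adjusted p-values 0.0043 and 0.0241, edgeR). For Gpat2, Fkbp6 and Piwil4 the difference from DKO did not pass the test (adjusted p-values 0.0746, 0.191 and 0.9, edgeR).

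Meiotic chromosome genes formed another 7, with a median of -2.66. Against the same WT clones, the median of these genes was -0.61 in DKO and -0.996 in TKO. Smc1b, the meiotic cohesin subunit, had 0.882 and 0.789 CPM in Tet2-/- and 5.35, 6.96 and 3.48 in WT (log2 fold change -2.66, SE 0.323, adjusted p = 0.00243, edgeR). The Tet1-/- (1.49, 1.03 and 1.155 CPM), DKO (1.585 and 2.04) and TKO (1.39 and 1.44) clones also lay below every WT clone in Smc1b. Rec114, needed to form meiotic DNA breaks, had 1.97 and 1.55 CPM against 8.14, 14.1 and 11.3 (-2.68, SE 0.311, adjusted p = 0.00222, edgeR). Hormad2, of the chromosome axis, had 0.922 and 0.762 CPM against 3.17, 6.14 and 4.55 (-2.46, adjusted p = 0.00687, edgeR). Tex11 and Mcmdc2 fell by 1.20 and 1.60 on the log2 scale, and Aurkc, a kinase of meiotic division, by 3.13 (adjusted p-values 0.0280, 0.0264 and 0.0212, edgeR). Tex12, of the synaptonemal complex, had 1 and 2 counts in the Tet2-/- libraries and 36 in WT, a WT to knockout ratio of 9.73 (95% interval 3.07 to 49.4, exact binomial, counting error only).

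Testis-specific copies of housekeeping genes were a further 11. Rpl10l, a testis copy of a ribosomal protein gene, was the most abundant, with 43.7 and 49.7 CPM in Tet2-/- and 119, 176 and 166 in WT (log2 fold change -1.72, adjusted p = 0.00689, edgeR). Copies of such genes elsewhere in the genome can share reads, so this value is uncertain. Ldhc, the testis lactate dehydrogenase, had 0 counts in both Tet2-/- libraries and 14, 54 and 25 in WT, at least 12.1-fold lower when the floor of 3 counts per library was used. Cyct, testis cytochrome c, had 0.241 and 0.0816 CPM against 0.612, 2.15 and 1.89 (-3.33, adjusted p = 0.0120, edgeR), and Slc25a31, a germ cell ATP carrier, fell by 1.91 (adjusted p = 0.0278, edgeR).

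On the X chromosome, Xlr3a, of a lymphoid and germ cell family, had 0 and 1 counts in Tet2-/- and 24, 134 and 105 in WT, a ratio of 213 (95% interval 37.9 to 8450, counting error only). Its relative Xlr4a had 0 counts in both against 8, 31 and 29, at least 8.94-fold lower. Members of this family are near-identical, so counts may be split among them. With Xlr3b and Pnma5 they were neighbours at chrX:70279327-70448269 of mm9, where all 4 genes tested were called lower. Usp26, a testis deubiquitinase gene, had 0.201 and 0.109 CPM against 0.994, 4.58 and 4.097 (-4.40, adjusted p = 0.0107, edgeR). The homeobox genes Rhox10 and Rhox13 fell by 1.91 and 1.93 (adjusted p-values 0.0107 and 0.00589, edgeR), and they were the 2 called of 5 Rhox genes tested among 30 in the table. For the X chromosome as a whole, 26 of 487 genes tested were called lower (5.34%, against 2.37% of all genes) and 4 higher (0.821%, against 0.816%).

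The promoters of 4 of these genes are shown because the genes fell together. Each is the 250 bases before the RefSeq start in GRCm38.p6 on the gene's strand, and capitals mark CACGTG (an E-box) and TCCCGC or its reverse complement GCGGGA (the core of an E2F site):
Mael, chr1:166238745-166238994, minus strand: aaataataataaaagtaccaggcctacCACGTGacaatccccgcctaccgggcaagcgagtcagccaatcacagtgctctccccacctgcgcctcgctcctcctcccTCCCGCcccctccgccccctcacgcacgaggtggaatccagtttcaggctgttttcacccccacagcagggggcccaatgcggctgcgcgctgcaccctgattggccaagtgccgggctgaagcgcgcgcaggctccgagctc
Rec114, chr9:58741560-58741809, minus strand: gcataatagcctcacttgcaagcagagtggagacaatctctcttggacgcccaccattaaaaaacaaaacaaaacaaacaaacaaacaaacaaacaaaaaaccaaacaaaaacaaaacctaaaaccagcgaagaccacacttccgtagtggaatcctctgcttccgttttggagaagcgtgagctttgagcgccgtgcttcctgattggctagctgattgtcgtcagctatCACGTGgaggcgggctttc
Smc1b, chr15:85131958-85132207, minus strand: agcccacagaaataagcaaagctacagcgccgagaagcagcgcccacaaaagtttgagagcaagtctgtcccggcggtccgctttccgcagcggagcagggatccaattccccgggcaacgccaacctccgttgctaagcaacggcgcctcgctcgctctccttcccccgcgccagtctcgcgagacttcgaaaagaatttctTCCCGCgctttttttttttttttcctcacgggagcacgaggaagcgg
Dazl, chr17:50293621-50293870, minus strand: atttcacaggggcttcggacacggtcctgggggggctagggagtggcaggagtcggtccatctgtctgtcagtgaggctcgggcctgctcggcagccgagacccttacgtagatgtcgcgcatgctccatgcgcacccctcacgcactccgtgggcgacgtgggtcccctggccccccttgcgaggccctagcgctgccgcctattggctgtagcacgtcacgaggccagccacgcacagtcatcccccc
The windows held 18, 10, 25 and 20 CG dinucleotides, the sites of DNA methylation, against a median of 6 over 27025 promoters of the table and of 16 over those of the genes tested. The germ cell groups together had a median of 10, below that of the genes tested. Of the 47 genes of the germ cell groups 40 were matched to a promoter (85.1%). CACGTG occurred in 11 of them (27.5%), against 6.05% of all promoters, and TCCCGC on either strand in 9 (22.5%), against 16.9%. Among promoters of the genes tested, CACGTG occurred in 8.51% and TCCCGC in 30.4%, so TCCCGC was more frequent there than in the germ cell groups. The table held a promoter for 78.6% of the genes tested and for 85.1% of the germ cell groups, too few of the former for a check, so these shares are descriptions only. Dazl held neither word in this window.

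Several 2-cell-like genes fell. Of 28 listed genes 24 were in the table, 14 passed the filter and 5 were called lower (35.7%, against 2.37% of all genes), with a median log2 fold change of -1.62 and none higher. Zscan4a, a telomere-linked gene of this state, had 0.201 and 0.218 CPM in Tet2-/- and 0.535, 1.45 and 1.76 in WT (log2 fold change -2.54, SE 0.536, adjusted p = 0.0180, edgeR). Zscan4d had 0.281 and 0.408 CPM against 0.918, 1.10 and 1.80 (-1.83, SE 0.521, adjusted p = 0.0456, edgeR). In DKO Zscan4d stood at 5.59 and 2.97 CPM, above all other values here, and Tet2-/- was lower than DKO by -3.59 (adjusted p = 0.00289, edgeR). TKO clones had 0.356 and 0.0390 CPM, and the difference from Tet2-/- did not pass the test (adjusted p = 0.476, edgeR). Zscan4c fell by 2.196 (adjusted p = 0.0331, edgeR). Zscan4b and Tcstv1 rested on 3 and 2 counts in the Tet2-/- libraries together, with WT to knockout ratios of 9.19 (95% interval 2.89 to 46.7) and 15.4 (3.98 to 132). The Zscan4 genes are close copies of each other and can share reads. In bulk RNA, fewer cells of this state and less RNA per cell cannot be told apart.

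The NLR genes Nlrp4c, Nlrp4f and Nlrp14, known from oocytes, were called lower together with Naip5, an innate immune sensor. Nlrp4f had 1.12 and 1.01 CPM against 3.98, 6.57 and 4.998 (log2 fold change -2.29, adjusted p = 0.00364, edgeR), and Nlrp4c and Nlrp14 fell by 1.80 and 1.78 (adjusted p-values 0.0212 and 0.0323, edgeR). Naip5 had 0 and 1 counts against 6, 17 and 18, a ratio of 33.2 (95% interval 5.64 to 1340). It lies near Mccc2, a leucine catabolism gene that had 2.69 and 4.30 CPM against 9.67, 15.9 and 14.8 (-1.93, adjusted p = 0.00840, edgeR). At chr13:100718488-101016278 of mm9, 3 of 5 genes tested were called lower.

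**Figure D2:**
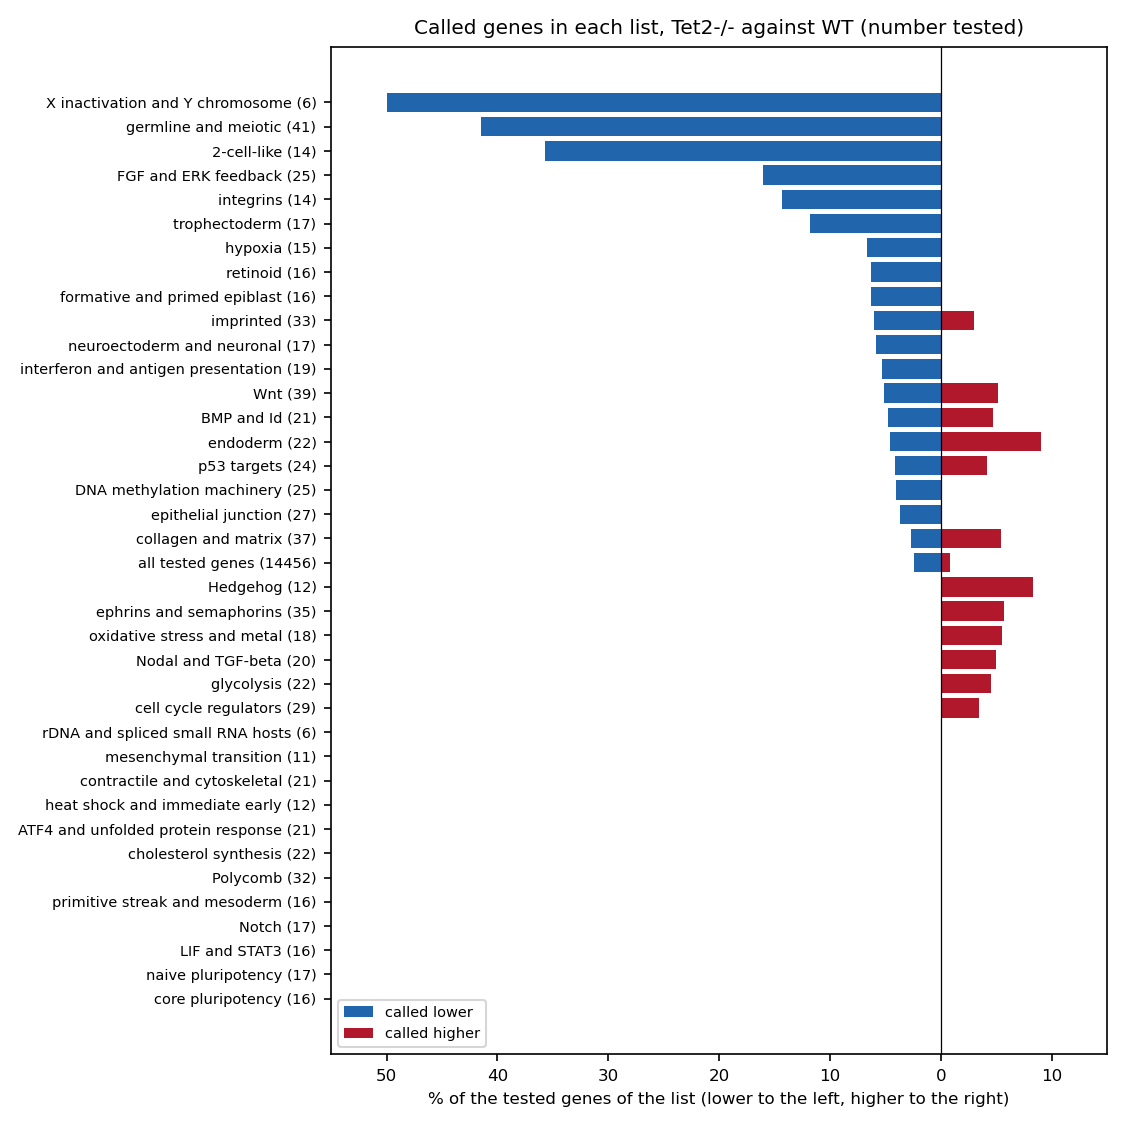
Share of the tested genes of each list that was called lower (blue, left) or higher (red, right) in Tet2-/- against WT, with the number tested in brackets and all genes for comparison. The germline and meiotic list (41.5% lower) and the 2-cell-like list (35.7%) stand out beside all genes (2.37%), and the X and Y list holds 6 tested genes, of which the 3 called are Y-linked. The lists were chosen with earlier results of these data known.

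The Schlafen genes, a family tied to growth control and immunity, fell at 1 locus. All 4 genes tested at chr11:82793131-83028656 of mm9 were called lower, although the call of Slfn8 was lost in 7 of 12 alternatives, with DESeq2 and without any 1 clone among them. Slfn9 had 1.60 and 0.816 CPM in Tet2-/- and 13.4, 13.4 and 10.4 in WT (log2 fold change -3.40, SE 0.553, adjusted p = 0.00820, edgeR). DKO (1.79 and 1.67 CPM) and TKO (2.97 and 0.351) stood near Tet2-/-, and neither difference from it passed the test (adjusted p-values 0.543 and 0.631, edgeR). Slfn8 and Slfn10-ps fell by 2.59 and 1.84 (adjusted p-values 0.0441 and 0.0105, edgeR), and Slfn3 had 3 counts in Tet2-/- against 76 in WT, a ratio of 20.5 (95% interval 6.77 to 102).

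Of the interferon and antigen presentation list, 1 of 19 genes tested was called lower (5.26%, against 2.37% of all genes) and none higher. It was Ifitm3, an antiviral membrane protein (15.6 and 16.7 CPM against 29.9, 27.4 and 49.3, log2 fold change -1.14, adjusted p = 0.0155, edgeR). Outside the list, and chosen after the values were seen, the GTPases Igtp and Irgm2, the sensor Oas3 and the interferon-induced gene Nmi fell by 1.95, 1.21, 1.18 and 1.60 (adjusted p-values 0.0121, 0.0441, 0.0143 and 0.0212, edgeR). The MHC class II gene H2-Eb1 and its chaperone Cd74 fell by 1.74 and 1.67 (adjusted p-values 0.0281 and 0.0114, edgeR). H2-T22 and H2-T9, nonclassical MHC genes, had nearly the same values (-1.17 and -1.16), and as close copies they may share reads.

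Plac8, known from placenta and blood cells, had 2.09 and 1.82 CPM in Tet2-/- and 20.1, 15.8 and 24.3 in WT, with no overlap (log2 fold change -3.37, SE 0.268, adjusted p = 0.000158, edgeR). It was also lower than in DKO (13.1 and 9.87 CPM, log2 difference -2.56, adjusted p = 0.00144, edgeR) and in TKO (7.96 and 10.2 CPM, -2.22, adjusted p = 0.00137, edgeR).

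Some regulators and structural genes of epithelia, picked by function after the values were seen, were called lower. Hnf4a, a transcription factor of liver, gut and visceral endoderm, had 0.241 and 0.136 CPM in Tet2-/- and 2.33, 5.13 and 2.66 in WT (log2 fold change -4.19, SE 0.634, adjusted p = 0.00612, edgeR). It was also low in DKO (0.501 and 0.139 CPM) and TKO (0.871 and 0.312). Esrp1, a splicing factor of epithelial cells, had 5.21 and 2.42 CPM against 13.0, 13.5 and 12.7 (-1.80, SE 0.300, adjusted p = 0.00854, edgeR), and it was the 1 called of 27 epithelial junction genes tested (3.7%, against 2.37% of all genes). Grhl2, an epithelial transcription factor, fell by 1.11 (adjusted p = 0.0282, edgeR), Vil1, the villin of microvilli, by 2.57 (adjusted p = 0.00529), and Krt7, a simple epithelial keratin, by 2.03 (adjusted p = 0.0236). Serpinb5 had 0 counts in both knockout libraries against 5, 15 and 7 in WT, at least 3.52-fold lower.

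Several muscle filament genes were called lower, at low levels. Myl4, the embryonic myosin light chain, had 0.0802 and 0.0544 CPM against 0.574, 1.41 and 2.05 (log2 fold change -4.26, adjusted p = 0.00857, edgeR), and Myh3, embryonic myosin heavy chain, 1.28 and 1.20 against 2.71, 6.18 and 3.81 (-1.77, adjusted p = 0.0256, edgeR). Myl2, the ventricular light chain, fell by 1.80 (adjusted p = 0.0275, edgeR), a call lost with DESeq2. None of the 21 contractile and cytoskeletal genes tested in the list was called.

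In FGF signalling, 4 of 25 genes tested in the list were called lower (16.0%, against 2.37% of all genes) and 0 higher, while the median of the list was 0.04. The receptor Fgfr3 had 0.361 and 0.354 CPM in Tet2-/- against 1.61, 2.70 and 1.56 in WT (log2 fold change -2.44, SE 0.562, adjusted p = 0.0236, edgeR), and the receptor Fgfr2 1.04 and 0.490 against 1.87, 4.77 and 1.93 (-1.95, adjusted p = 0.0435, edgeR). The ligand Fgf3 fell by 1.29 (adjusted p = 0.0278, edgeR). Egr1, an immediate early target of ERK, had 8.30 and 8.98 CPM against 29.0, 16.8 and 29.4 (-1.53, SE 0.239, adjusted p = 0.00715, edgeR). Only these members of the list were called, so receptors, a ligand and a target fell beside 21 genes that were not called.

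Few members of other signalling lists were called, where 2.37% of all genes were lower and 0.816% higher. In the Wnt list, 2 of 39 genes tested were lower, the ligand Wnt7b (-2.34, adjusted p = 0.0468, edgeR) and the receptor-degrading Rnf43 (-1.88, adjusted p = 0.0473), and 2 were higher, the secreted antagonist Sfrp1 and the target Cdx1. The call of Rnf43 was lost in 8 of 13 alternatives, with DESeq2 and without any 1 clone among them. Sfrp1 had 445 and 509 CPM in Tet2-/- against 216, 136 and 209 in WT, so it was abundant and well separated (log2 fold change 1.35, SE 0.302, adjusted p = 0.0216, edgeR). Sfrp1 lies on chromosome 8, whose genes were shifted as a whole, as given below. In the BMP list, the signal transducer Smad9 fell by 2.63 (adjusted p = 0.0271, edgeR) and Chrd, a secreted BMP antagonist, was higher by 1.14 (6.90 and 6.07 CPM against 3.17, 2.504 and 3.16, adjusted p = 0.0143). The ligand Bmp6, outside the list, fell by 1.33 (adjusted p = 0.0448, edgeR), a call lost without any 1 clone. Foxh1, the Nodal pathway factor, had 56.1 and 56.0 CPM against 34.6, 18.9 and 21.96 (1.15, adjusted p = 0.0119, edgeR), the 1 call among 20 Nodal and TGF-beta genes. Gli1, the Hedgehog effector and target, was higher by 1.02 (adjusted p = 0.0271, edgeR), a call lost with library totals. Dtx1 and Dtx4, Deltex genes of the Notch pathway outside the Notch list, were higher by 1.33 and 1.36 (adjusted p-values 0.0197 and 0.0377, edgeR), whereas none of 17 Notch genes tested in the list was called. The call of Dtx4 was lost without any 1 clone.

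**Figure D3:**
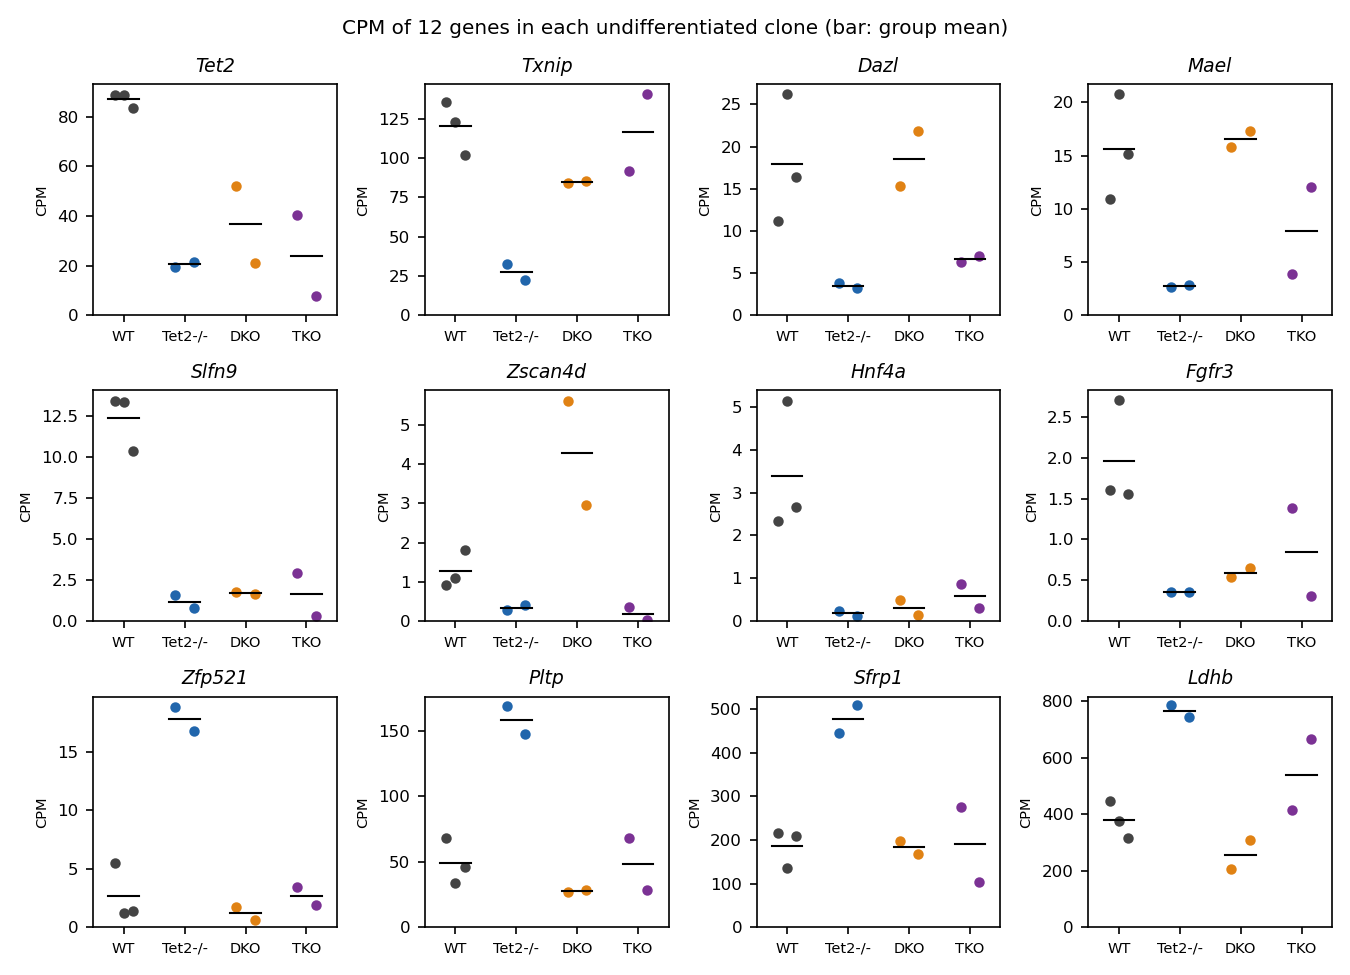
CPM of 12 genes in each undifferentiated WT, Tet2-/-, DKO and TKO clone, each point a clone and each bar a group mean, with axes from 0. Both Tet2-/- clones lie below all WT clones for the first 8 genes and above them for Zfp521, Pltp, Sfrp1 and Ldhb, while Zscan4d is highest in DKO.

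Among genes of metabolism, Txnip, the arrestin that restrains glucose uptake and thioredoxin, had 32.7 and 22.7 CPM in Tet2-/- and 136, 123 and 102 in WT (log2 fold change -2.12, SE 0.207, adjusted p = 0.000787, edgeR). Its relative Arrdc4, also known to respond to glucose, had 13.9 and 13.7 CPM against 46.5, 53.2 and 46.1 (-1.82, SE 0.281, adjusted p = 0.00692, edgeR). Tet2-/- was lower than DKO and TKO in Txnip (log2 differences -1.62 and -2.08, adjusted p-values 0.00206 and 0.000434, edgeR). Gm15441, on the opposite strand across Txnip at chr3:96359688-96370724, fell by 2.25 (adjusted p = 0.000448, edgeR), but the library kit does not mark strand, so reads of both genes cannot be told apart. D2hgdh, which removes D-2-hydroxyglutarate, an inhibitor of TET enzymes, had 0.201 and 0.0544 CPM against 1.34, 1.06 and 1.64 (-3.48, adjusted p = 0.0143, edgeR). Gpx2, a glutathione peroxidase, fell by 3.20 (adjusted p = 0.00612, edgeR).

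Many glycolysis genes lay above WT. Of 22 tested, 13 had both Tet2-/- clones above all WT clones (29% of all genes did) and 0 below, and the median log2 fold change was 0.39. Of the 22, 1 was called higher (4.55%, against 0.816% of all genes) and none lower. That gene was Ldhb, a lactate dehydrogenase gene of chromosome 6, with 788 and 745 CPM against 447, 378 and 317 (1.01, SE 0.201, adjusted p = 0.0149, edgeR). Its call was lost in 7 of 14 alternatives, with library totals, a mean of at least 1 CPM and the replicate block among them. Genes of ATF4 and the unfolded protein response had a median of 0.61, with 15 of 21 above all WT clones and none called. The glycolysis median was -0.46 in DKO and -0.01 in TKO, and that of the ATF4 list -0.18 and 0.11, each against the same WT clones. Pck2, an ATF4-regulated enzyme outside that list, was called higher (87.0 and 104 CPM against 49.6, 29.6 and 27.0, log2 fold change 1.43, adjusted p = 0.0455, edgeR), a call lost in 6 of 14 alternatives, library totals among them.

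Among p53 targets, Pmaip1 (Noxa), a cell death activator, had 6.14 and 12.5 CPM in Tet2-/- and 45.5, 68.7 and 46.3 in WT (log2 fold change -2.501, SE 0.438, adjusted p = 0.0105, edgeR). Gdf15, a stress-induced cytokine, was higher by 1.40 (8.42 and 9.17 CPM against 4.24, 2.66 and 3.114, adjusted p = 0.0163, edgeR). Of the 24 tested, these were the 1 called lower (4.17%, against 2.37% of all genes) and the 1 called higher (4.17%, against 0.816%). The other 22 were not called, 16 of the 24 lay below all WT clones (28.7% of all genes did), and the median was -0.42. Cdkn1b (p27), a cell cycle inhibitor encoded on chromosome 6, was higher by 1.03 (adjusted p = 0.0478, edgeR). It was the 1 call among 29 cell cycle regulators tested (3.45% higher, against 0.816% of all genes). This call, too, was lost in 7 of 14 alternatives, among them library totals.

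Abundant genes that fell included Lincenc1, a long noncoding RNA of naive ESCs, with 61.4 and 41.4 CPM against 101, 364 and 160 (log2 fold change -2.02, adjusted p = 0.0323, edgeR). Hnrnph1, a splicing regulator, had 98.4 and 114 CPM against 168, 227 and 256 (-1.03, adjusted p = 0.0149, edgeR), and Nabp1, a single-stranded DNA binding protein, fell by 1.20 (adjusted p = 0.0323, edgeR).

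The largest rise was that of Zfp521, a zinc finger factor of neural and blood progenitors. It had 18.8 and 16.7 CPM in Tet2-/- and 5.47, 1.21 and 1.43 in WT, with clone O4.1 the highest of the WT clones (log2 fold change 2.71, SE 0.496, adjusted p = 0.0116, edgeR). DKO had 1.75 and 0.649 CPM and TKO 3.48 and 1.87, both below Tet2-/- (log2 differences 3.86 and 2.73, adjusted p-values 0.00422 and 0.0151, edgeR). Kcnc2, a potassium channel, had 1.56 and 2.45 CPM against 0.612, 0.274 and 0.328 (2.304, adjusted p = 0.0161, edgeR), and Dclk1, a microtubule-associated kinase of neurons, 2.17 and 1.28 against 0.229, 0.352 and 0.533 (2.19, adjusted p = 0.0428). The call of Dclk1 was lost in 6 of 13 alternatives, with the highest line per symbol and without any 1 clone. Cspg5 and Caskin1, known from neurons and synapses, were higher by 1.63 and 1.48 (adjusted p-values 0.0278 and 0.0102, edgeR). None of the 17 neuroectoderm and neuronal genes tested in the list was called higher (0.816% of all genes were), and 1 was lower (5.88%, against 2.37%). The sum of the neuroectoderm markers given above was also higher in both Tet2-/- clones than in WT, and its part in these calls was not tested.

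Some matrix and secreted genes were called higher. The sum of the fibroblast markers given above, mostly Thy1, was also higher in both Tet2-/- clones, and its part in these calls was not tested. Pltp, the phospholipid transfer protein, had 169 and 147 CPM against 68.1, 34.1 and 46.1 (log2 fold change 1.68, SE 0.319, adjusted p = 0.0130, edgeR), and Tgfbi, a matrix adhesion protein, 132 and 122 against 57.7, 27.7 and 37.7 (1.63, SE 0.350, adjusted p = 0.0187, edgeR). The basement membrane collagens Col4a1 and Col4a2, head-to-head neighbours on chromosome 8, were higher by 1.07 and 1.26 (adjusted p-values 0.0157 and 0.0103, edgeR). Of 37 collagen and matrix genes tested they were the 2 called higher (5.41%, against 0.816% of all genes), and 1 was lower (2.7%, against 2.37%). Peg10, a paternally expressed imprinted gene of chromosome 6, had 450 and 454 CPM against 197, 298 and 153 (1.07, adjusted p = 0.0153, edgeR). Of 33 imprinted genes tested it was the 1 called higher (3.03%, against 0.816% of all genes), and 2 were lower (6.06%, against 2.37%). These were Usp29, paternally expressed (log2 fold change -1.66, adjusted p = 0.0177, edgeR), and Ascl2, maternally expressed (-1.10, adjusted p = 0.0349), so calls of both parental classes were among them. The metallothioneins Mt1 (272 and 292 CPM against 126, 125 and 97.6, log2 fold change 1.28, adjusted p = 0.00529, edgeR) and Mt3 (1.69, adjusted p = 0.00420) rose together.

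**Figure D4:**
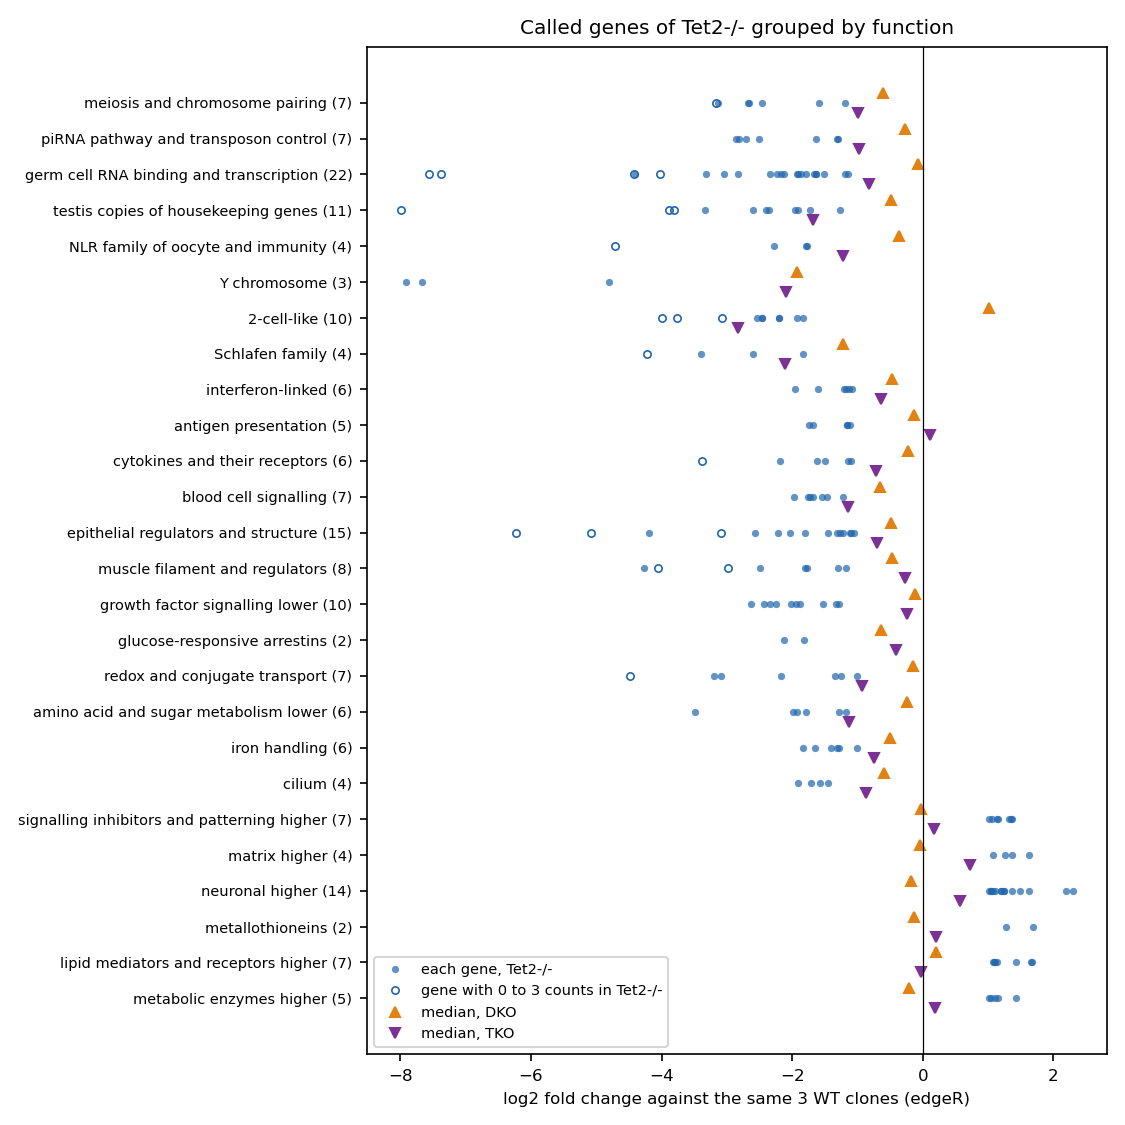
Log2 fold change against WT (edgeR) of genes called in Tet2-/-, grouped by function after the values were seen (number of genes in brackets), with the median of the same genes in DKO and TKO against the same WT clones. Open circles are genes with 0 to 3 counts in the Tet2-/- libraries, whose fitted values are uncertain, and the 2-cell-like genes have a positive median in DKO.

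Called genes were not spread evenly over the chromosomes. Chromosome 8 held 25 of the 118 genes called higher, which is 3.56% of its 702 genes tested, against 0.816% of all genes, and 7 called lower (0.997%). The whole chromosome was shifted: over 511 genes with a WT mean of at least 5 CPM, the median log2 difference from the WT mean, relative to the autosomes, was 0.245 in the first Tet2-/- clone and 0.267 in the second, and 78.5% and 84.1% of the genes lay above the autosomal median. The WT clones O4.1, O4.2 and O4.13 stood at 0.096, -0.116 and 0.021, DKO at 0.139 and -0.026, and TKO at 0.216 and 0.191. Chromosome 6 was shifted by 0.155 and 0.192 in the Tet2-/- clones, against 0.094, 0 and -0.104 in WT. Isyna1, Ssbp4, Pde4c and Gdf15 were neighbours among the called genes of chromosome 8, which also held Sfrp1, Col4a1, Col4a2, Mt1 and Mt3. Ldhb, Cdkn1b and Peg10, also called higher, lie on chromosome 6. A gain of chromosome 8 is a known event in cultured mouse ESCs. DNA copy number was not measured here, and its part in these calls was not tested. Leaving out chromosomes 6, 8 and Y, 84 genes were called higher and 324 lower.

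The Y-linked genes Ddx3y, Uty and Eif2s3y, 3 of 4 tested on that chromosome, were lower in Tet2-/-. Ddx3y, a helicase gene, had 0.321 and 0.163 CPM against 4.74, 119 and 18.6, and Eif2s3y, a translation factor gene, 1.56 and 0.571 against 6.23, 62.5 and 16.3. The WT clones themselves differed widely, and DKO (4.59 and 13.7 CPM for Ddx3y) and TKO (10.7 and 5.81) lay within or near their range. The 3 Tet1-/- clones, at 2.09, 1.48 and 3.84 CPM for Ddx3y, also lay below every WT clone. The fitted log2 fold changes were -7.66 for Ddx3y, -7.91 for Uty and -4.80 for Eif2s3y (adjusted p-values 0.0143, 0.0178 and 0.0160, edgeR). Whether cells had lost the chromosome was not tested.

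**Figure D5:**
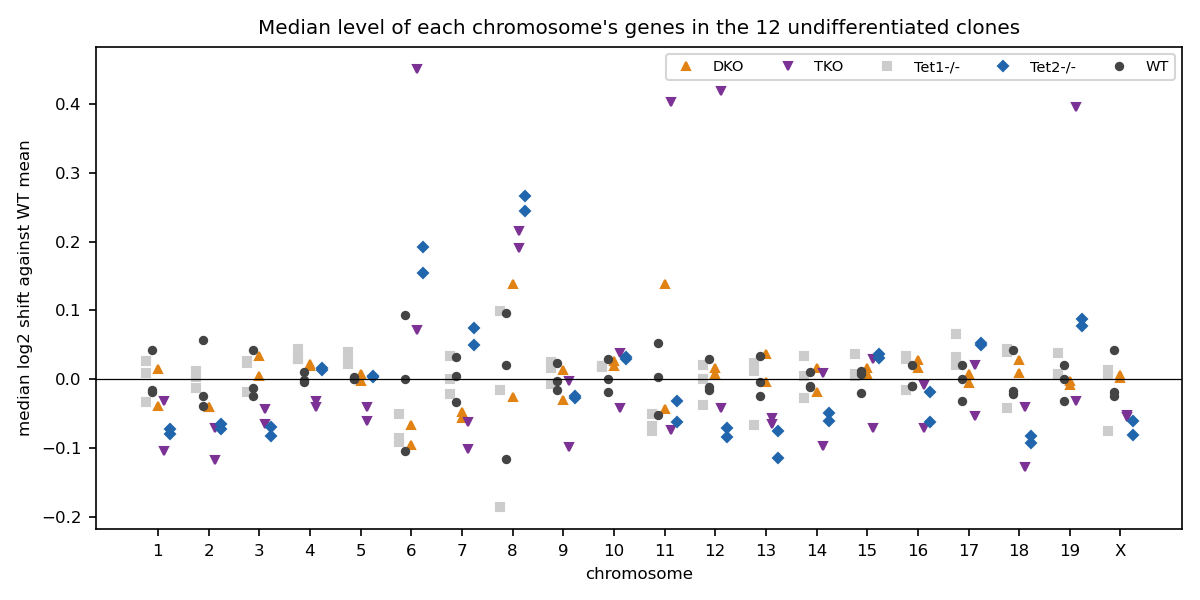
Median log2 difference of each chromosome's genes from the WT mean, relative to all autosomes, in each of the 12 undifferentiated clones, for genes with a WT mean of at least 5 CPM. Both Tet2-/- clones lie above all WT clones on chromosomes 6 and 8, and with smaller shifts on others, such as 7, 15, 17 and 19. On chromosomes 1, 3 and X, among others, they lie below all WT clones. Of the TKO clones, 1 stands apart on chromosomes 6, 11 and 12 and the other on chromosome 19.

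The knockouts in which Tet2 was also targeted differed from Tet2-/- in the direct tests. Against DKO, 919 genes were called (6.36%), 457 higher and 462 lower in Tet2-/-, and against TKO 606 (4.19%), 305 higher and 301 lower. With 1 clone of either group left out in turn, these counts ran from 145 to 333 against DKO, and from 141 without the second Tet2-/- clone to 1935 without the first TKO clone against TKO. The genes called lower in Tet2-/- had a median log2 fold change against the same WT clones of -0.32 in DKO and -0.84 in TKO, and those called higher -0.07 and 0.33. These comparisons share their WT libraries, so the medians are descriptions only. The difference between the effects at D6, after 6 days without LIF, and at D0 was called for 1357 of 15639 genes (8.68%), 554 more positive and 803 more negative at D6. The same WT and Tet2-/- clones were sequenced on both days, and with the clone as a block 1618 genes were called, 1269 of them shared.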

How the data were processed

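Polyadenylated RNA of ESC clones was sequenced (NEBNext Ultra, paired-end). According to the methods, the authors aligned reads with STAR 2.5.1 to mm9, and the deposited values are whole, unnormalised counts per RefSeq transcript line named by symbol. The authors normalised to added ERCC RNAs; the tables used here hold no ERCC lines, so changes are relative to each library's total and the split of calls depends on the scaling. The strand setting of the counting is not given in the sources used here. From 31928 lines the first line of each of 22926 symbols was used. The 12 D0 libraries were fitted with edgeR 4.0.16 (R 4.3.3) in the quasi-likelihood test, with 1 coefficient per genotype, TMM and filterByExpr at a minimum count of 10. P-values were adjusted by Benjamini and Hochberg, and the method was tested on simulated data. Alternatives were DESeq2 1.42.0, other scalings, filters and fits, and leaving out each clone.

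Members and gene lists were chosen with earlier results of these data known. Named genes were the Tet genes, in each direction the 20 largest called fold changes with separated groups and a mean of at least 1 CPM in the higher group, the 10 largest called differences in CPM, called list members, and the genes the study probed by blot or RT-qPCR, of which those that show the results are given. Others were chosen by function after their values were seen. Intervals and the floor of 3 counts cover counting error only.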

Additional observations from a re-analysis of the deposited data

Results flagged for a closer look

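For 25 of the 133 genes named with values, the effect of Tet2 knockout differed between D6 and D0 (edgeR's interaction term, adjusted p under 0.05 and more than 2-fold). The same rule called 8.68% of all genes, and most of the 133 genes had been chosen for their effect at D0. The values below are the effect at D6 minus that at D0, on the log2 scale. The WT and Tet2-/- libraries are shared by all of them.

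For the germ cell genes among them the effect was more positive at D6. The differences were 2.36 for Boll, 2.07 for Stk31, 2.33 for Tex11, 1.02 for Tdrkh and 2.54 for Rpl10l. Their effects at D6 did not pass the test (adjusted p-values 0.204, 0.115, 0.0662, 0.306 and 0.18, edgeR). At D6 Rpl10l stood at 7.11, 2.37 and 3.47 CPM in WT and 6.80 and 8.89 in Tet2-/-, below its D0 levels in both groups. Among pluripotency genes the differences were 1.22 for Pou5f1 and 2.06 for Zfp42. Pou5f1 had 489 and 575 CPM in Tet2-/- at D6, against 268, 207 and 219 in WT. Tet2 itself differed by 2.303, with 15.9 and 16.6 CPM in Tet2-/- at D6 and 16.0, 12.9 and 12.3 in WT, so the groups overlapped there.

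Epithelial and signalling genes that were lower at D0 had differences of 1.75 for Esrp1, 1.44 for Grhl2, 1.95 for Vil1, 1.58 for Egr1 and 2.01 for Pmaip1.

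Txnip fell further at D6 (-2.74), from 413, 291 and 410 CPM in WT to 13.9 and 11.96 in Tet2-/-, and the overlapping Gm15441 differed by -2.86. The genes among them that were higher at D0 were more negative at D6. The differences were -1.34 for Chrd, -1.67 for Col4a2, -3.91 for Dclk1, -1.77 for Foxh1, -5.02 for Gm9112, -2.78 for Nrbp2, -1.74 for Pck2, -2.29 for Peg10, -3.52 for S1pr1 and -2.15 for Zfp521.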

How the results depend on the processing

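For the 118 genes called higher and 343 lower, DESeq2 gave 129 and 374, library totals 87 and 387, no filter 145 and 391, and leaving out chromosomes 6, 8 and Y (chosen after seeing the data) 84 and 324. The count of higher genes moved to 178 with the 5 libraries alone. Without the TKO libraries the counts were 187 and 577. A mean of at least 1 CPM left 223 lower genes, and the adjusted p alone gave 725 and 692. Leaving out 1 clone gave 1 to 186 higher and 4 to 404 lower genes. The same gave 145 to 333 calls against DKO, 141 to 1935 against TKO and 408 to 2096 for the difference between days. With the replicate block the counts were 113 and 276, and 26 of 122 named calls were lost. Deviations of same-numbered clones correlated at 0 and -0.056, so the numbers were not taken to pair the clones. The log2 fold change of Pou5f1 ran from -0.134 to 0.01 with 1 clone left out, turning positive at 0.008 without O4.1 and at 0.01 without O4.13. Of the named calls, 109 and 119 were lost without the first or the second Tet2-/- clone, 4 with DESeq2 and 5 with library totals, and none reversed. Of the WT clones, leaving out O4.2 lost 65 of 121 named calls, O4.13 78 of 122 and O4.1 8 of 122. The cause of these losses was not tested. Genes with few counts have wide intervals at this depth.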
